A study of Mus musculus with 3 samples.

Results

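The comparison described here is that of mouse primary cortical neurons kept for 7 hours at 0.2% oxygen with neurons kept at 21% oxygen. Genes were taken in when their mean over the 3 libraries of the series reached 1 CPM (reads scaled to library size), which kept 12692 of the 24054 genes listed, and each gene was compared by the log2 ratio of CPM + 1, hypoxia over control. RNA-seq libraries had been made from total RNA with a strand-specific kit, 1 library for each of 3 groups. All 3 groups came from the brain of C57BL/6 mice at embryonic day 17 and had grown for 7 days in culture. The control group stayed at 21% oxygen. The hypoxia group had 0.2% oxygen for 7 hours and no added T3, the active thyroid hormone, and the third group had the same hypoxia with 5 nM T3. The hormone content of the control medium is not given in the sources used here. The third library is printed only to show a level in a further hypoxic culture. It shares the control with the hypoxia library. CPM values are given throughout in the order control, hypoxia, hypoxia with T3.

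With 1 library on each side there is no test between the groups. Culture to culture variation and the effect of oxygen cannot be told apart, and the numbers are sizes in these libraries. A 95% interval in parentheses after a fold is the exact Clopper-Pearson interval of the hypoxia library's part of a gene's reads. It covers counting error only, since without molecular identifiers reads cannot be taken for separate molecules. The libraries held 18081904, 17118865 and 22533574 reads, and 1 read stood for 0.0463, 0.0552 and 0.0425 CPM. The CPM of the hypoxia library summed to 1.13 times that of the control library, so that a fold of any gene is larger by that factor than with equal sums. With equal sums the median log2 ratio of all genes moved by -0.16, from 0.05 to -0.1, so list medians are to be read relative to that of all genes. A scaling moves all log2 ratios by nearly the same amount, so by arithmetic alone this relation hardly depends on the scaling chosen. Medians and ranges of lists are those of log2 ratios throughout. Markers matched the label: the general neuron list summed to 8178, 8844 and 8834 CPM. Of the markers of other cells, those of astrocytes summed to 630, 653 and 660 CPM and those of the oligodendrocyte lineage to 368, 220 and 223 CPM. Of 13 microglia markers, 10 were under the filter, with Tmem119 at 0 in both hypoxic libraries, and the list summed to 12, 17.1 and 18.5 CPM. Of 12 endothelial markers 11 were under the filter, with Tie1 at 0 in all 3 libraries, and the list summed to 3.99, 3.31 and 2.98 CPM. In a mixed culture, fewer cells of a type and less RNA per cell cannot be told apart.

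Cells short of oxygen lose most of their ATP supply from respiration. They stabilise HIF transcription factors, hold back translation through phosphorylation of eIF2 and inhibition of mTORC1, and change which RNAs are made and how long they last. Neurons have small energy stores, and synthesis of RNA and protein is among the processes they curtail. The accounts below leave aside the immediate early, HIF target and glycolysis lists and turn to feedback inhibitors, the transcription, RNA decay and translation machineries, developmental signalling, and the genes that were lower.

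In all, 252 genes (1.99%) were at least 2-fold higher and 624 (4.92%) at least 2-fold lower in hypoxia, and the median log2 ratio of all genes was 0.05. Higher genes were thus 28.8% of those at least 2-fold apart, and with equal sums they were 16.5%, or 188 higher against 949 lower. The 3 lists set aside held 66 of the higher genes and 1 of the lower ones, which left 186 higher and 623 lower among 12563 genes. Genes of known hypoxic and activity programmes were thus a sizeable minority of the higher genes and nearly absent from the lower ones. Counted in CPM rather than genes, 6922 genes gained 172216 CPM in hypoxia and 5770 lost 64730 CPM. The 20 largest gains made up 11.7% of the gain and the 20 largest losses 9.04% of the loss. Rn45s, the ribosomal RNA precursor, had the largest gain, at 2598, 5119 and 8649 CPM. Next came Actg1, a cytoplasmic actin, at 3285, 5132 and 5112 CPM, and Eef1a1, the factor that brings aminoacyl-tRNA to the ribosome, at 2641, 4259 and 4350 CPM. The largest losses were those of Tubb5 and Tubb3, beta tubulins, at 2124, 1212 and 1092 and at 1771, 873 and 739 CPM. After the alpha tubulin Tuba1a came Celf2, a splicing regulator, at 824, 332 and 315 CPM, and Tcf4, a basic helix-loop-helix factor, at 519, 244 and 258 CPM.

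**Figure D1:**
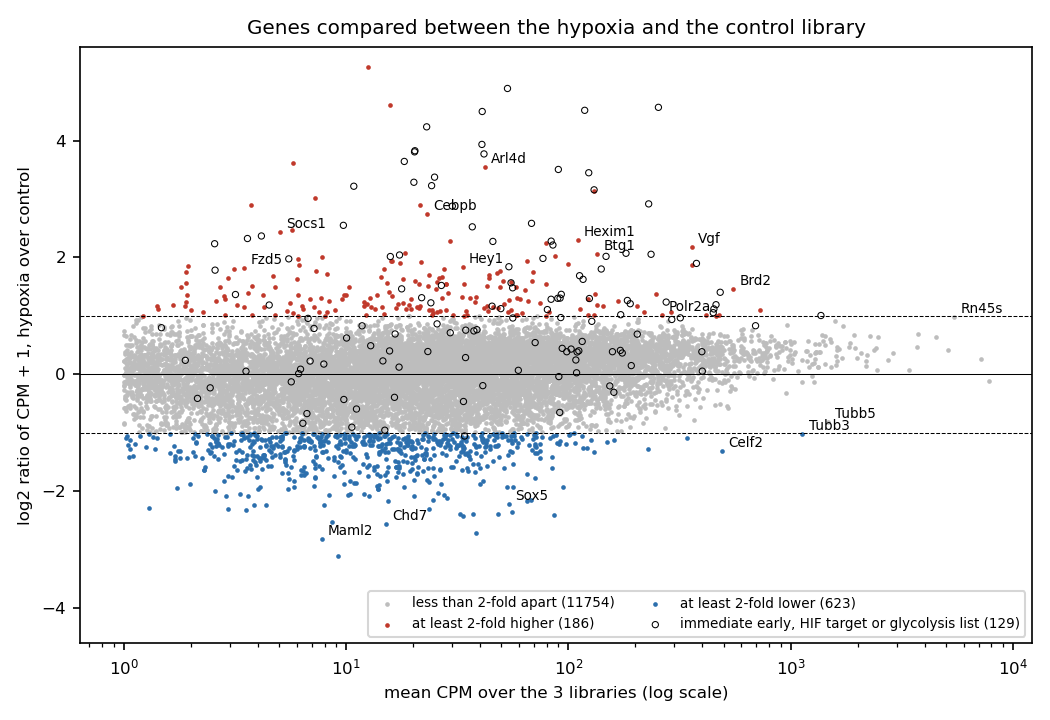
Log2 ratio of CPM + 1, hypoxia over control (vertical axis), against the mean CPM over the 3 libraries (horizontal axis, log scale), 1 point per gene, n = 12692. Of the genes off the 3 lists, 186 lie above the upper dashed line at a ratio of 2-fold and 623 below the lower one, while open circles are the 129 genes of the 3 lists.

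Among the genes on none of the 3 lists and without near-identical copies, Arl4d had the highest log2 ratio of CPM + 1 at a mean of at least 5 CPM, and several inhibitors that act back on signalling pathways were higher too. Arl4d, a small GTPase of the ADP-ribosylation factor family, stood at 4.22, 60.1 and 62.3 CPM and was 14.3-fold higher (95% interval 11.5 to 17.9). Socs1, which blocks JAK kinases, had 14, 144 and 153 reads, or 0.649, 7.95 and 6.51 CPM, and was 12.3-fold higher (95% interval 7.07 to 23). Errfi1, an inhibitor of the EGF receptor, was at 20.8, 102 and 114 CPM, 4.93-fold higher (95% interval 4.45 to 5.48). Both hypoxic libraries lay far above the control for each. Spry4 and Spry1, Sprouty proteins that restrain the Ras pathway, were at 22.5, 89.6 and 83.3 and at 13.9, 29.1 and 30.2 CPM. Spred2, a related inhibitor, went the other way, at 67.2, 27.8 and 31.4 CPM, so the 6 Ras pathway inhibitors compared did not move as a group. Bambi, a decoy receptor of the TGF-beta family, was at 1.95, 10.8 and 10.6 CPM and 5.56-fold higher (95% interval 3.97 to 7.96). Rgs2 and Rgs16, which speed the inactivation of G proteins, were at 39.7, 117 and 81.6 and at 3.94, 10.8 and 10.4 CPM, against Rgs17 at 49.2, 20.4 and 25 CPM and Rgs7bp at 96.2, 40.1 and 39.8 CPM. Nfkbia and Nfkbiz, which bind NF-kB, were at 8.81, 30.8 and 31 and at 0.973, 3.98 and 3.53 CPM, while the subunit Nfkb1 was at 9.22, 3.09 and 3.57 CPM. Higher and lower genes were both few in these families. They were 2 and 2 of 18 RGS genes (11.1% each) and 1 and 2 of 20 SOCS, STAT and JAK genes (5% and 10%). In the NF-kB list they were 2 and 1 of 18 (11.1% and 5.56%). Of all genes 1.99% were higher and 4.92% lower. Under 30 kb the counts were 2 and 0 of 7 RGS genes, 1 and 0 of 9 SOCS, STAT and JAK genes and 2 and 0 of 9 NF-kB genes.

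Secreted proteins and receptors went in both directions, with 3 higher and 3 lower of 40 neuropeptides and secreted proteins compared. Vgf, a neurosecretory granule protein and peptide precursor, was at 111, 505 and 464 CPM and 4.55-fold higher (95% interval 4.35 to 4.76). Nppc, the C-type natriuretic peptide, was at 4.4, 12.9 and 11.9 CPM, and Hbegf, a ligand of the EGF receptor, at 11.8, 36.5 and 36.6 CPM. Of 10 granins and granule proteins compared, 9 lay above the median of all genes, with a list median of 0.57. The 18 trophic factors did not share this, with 1 higher, 3 lower and a median of -0.04. Ntf3, neurotrophin-3, was at 6.53, 1.44 and 1.74 CPM. Tnfrsf12a, the receptor for the cytokine TWEAK, had 15, 152 and 188 reads and was 12.1-fold higher (95% interval 7.09 to 22.1). Adra2a, an adrenergic receptor that inhibits adenylyl cyclase, was at 12.9, 39.6 and 49.6 CPM, and Chrm4, a muscarinic receptor of the same coupling, at 6.81, 19.8 and 20 CPM. Among the other 27 monoamine, acetylcholine, purine and cannabinoid receptors compared, P2rx6 was also 2-fold higher, and the serotonin receptors Htr2a, Htr1a and Htr5a and the muscarinic receptor Chrm3 were lower. That made 3 higher and 4 lower of 29, with a median of -0.10. Htr2a was at 2.5, 0.331 and 0.468 CPM and Chrm3 at 11.4, 4.64 and 4.72 CPM.

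**Figure D2:**
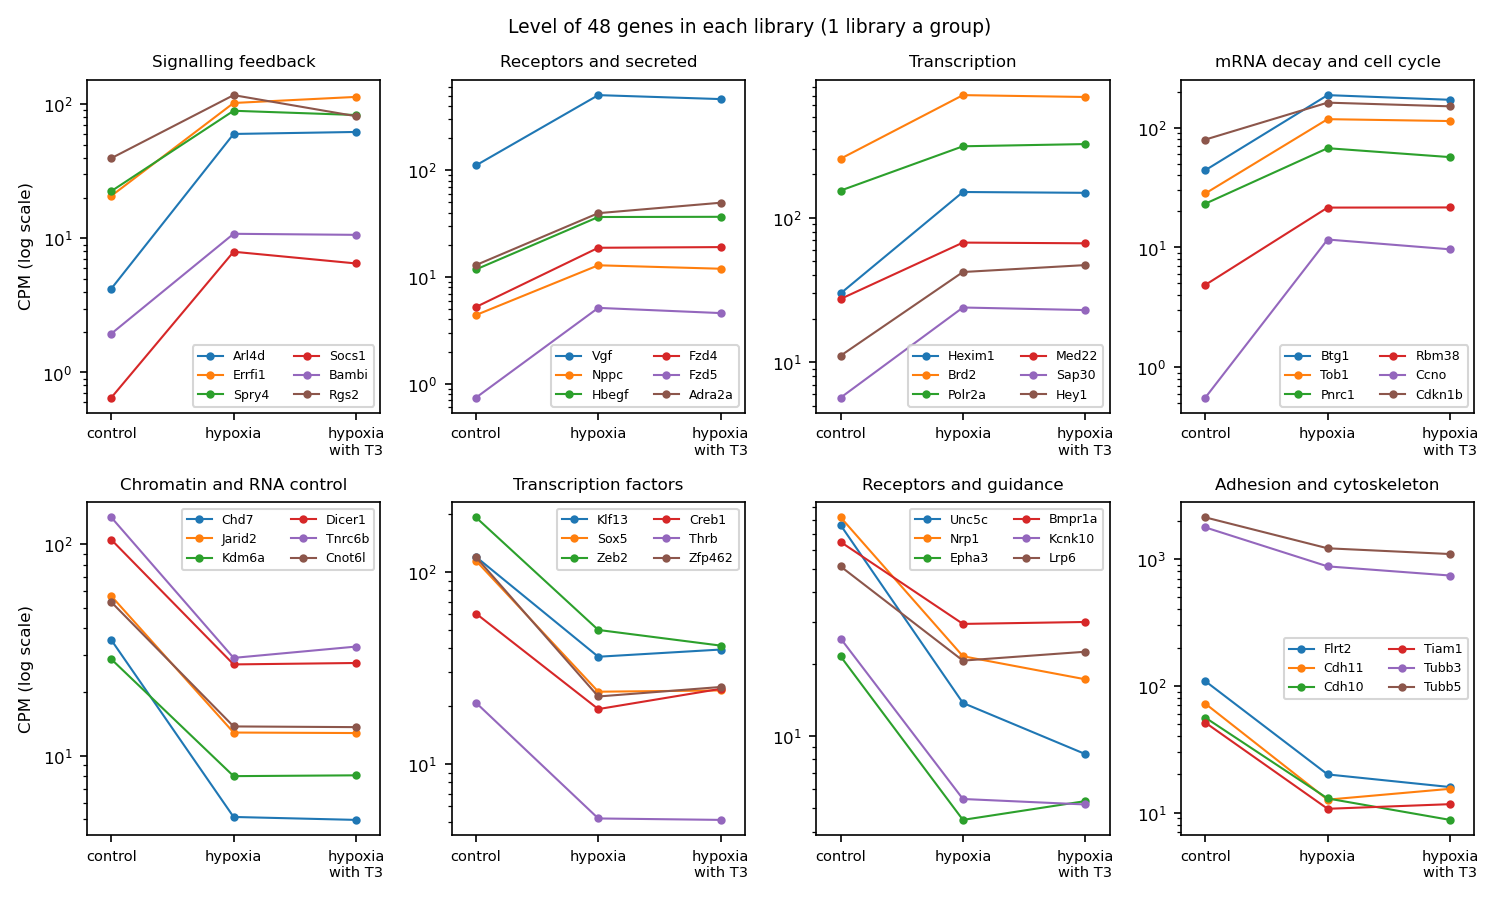
CPM (vertical axis, log scale) of 48 genes in the control, hypoxia and hypoxia with T3 libraries, 1 line per gene and 1 library per point. In the upper row, genes such as Arl4d go from 4.22 CPM in control to 60.1 in hypoxia, and in the lower row genes such as Sox5 go from 114 to 23.7.

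Promoter sequences were looked up for the genes compared, since many of the higher genes are short genes known to be quickly induced. RefSeq promoters (build GRCm38.p6, 250 bases before and 50 after the start farthest upstream) matched 9536 of the 12692 genes by symbol, 192 of those higher and 475 of those lower. The TATA box letters TATAAA, searched on both strands, were in 19.8% of the promoters of higher genes, in 6.5% of all promoters and in 5.26% of those of lower genes. Without the 3 lists the share among higher genes was 21.9%. On the coding strand and starting 35 to 22 bases before the start, a window chosen after the sequences were seen, TATAAA was in 17 of the 192 higher promoters (8.85%), in 90 of all 9536 (0.944%) and in 3 of the 475 lower ones (0.632%). Short genes hold this box more often, and in both span classes under 30 kb higher and lower genes alike held it more often than all genes. Among genes spanning less than 10 kb it was in 23.3% of the higher promoters, in 2 of the 13 lower ones (15.4%) and in 9.2% of all. Among genes of 10 to 30 kb it was in 14% of the higher, 5 of the 48 lower (10.4%) and 5.75% of all. From 30 kb the lower genes, at 4.35%, were under the 5.68% of all, and 2 of 14 higher promoters held it. The CCAAT box was in 50.5% of higher, 39.4% of all and 39.8% of lower promoters. By span it did not set the higher genes apart from the lower ones: under 10 kb it was in 53.3% of the higher and 69.2% of the lower, and at 10 to 30 kb in 45.6% and 50%. TGACGTCA, the cyclic AMP response element, was in 5.73% of higher, 3.49% of all and 1.68% of lower promoters. The AP-1 letters TGANTCA were in 5.73%, 4.11% and 4%, or in 8.03% of higher promoters without the 3 lists. The letters of the hypoxia response element core, ACGTG or GCGTG, were in 69.8% of higher, 64.5% of all and 57.1% of lower promoters, and in 65% of higher ones without the 3 lists. CACGTG, the E-box, overlaps that core and was in 11.5%, 10.3% and 8.84%. GGGCGG, the GC box, was in 75%, 66.2% and 66.7%. TTGCATCA or TTGCGTCA, the C/EBP-ATF response element, was in 5 higher promoters (2.6%), 1.54% of all and 1.26% of lower ones. A match is a run of letters and not a measured site, and the starts used in these neurons were not measured.

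**Figure D3:**
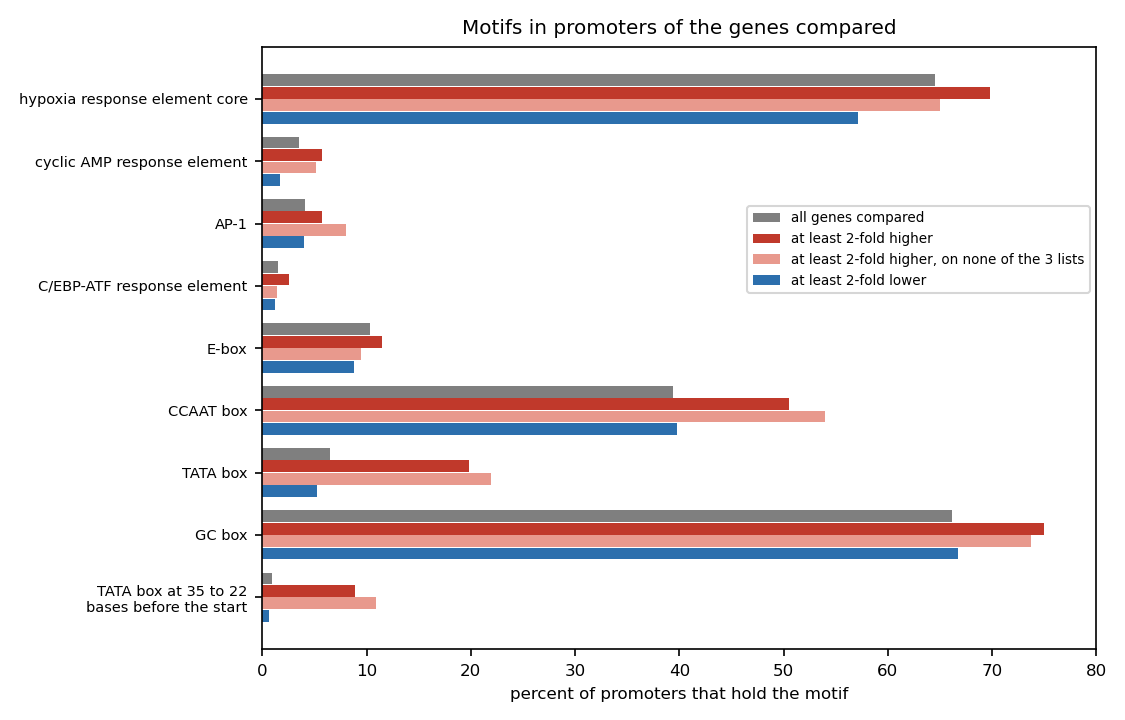
Percent of promoters that hold each motif on either strand (horizontal axis), for all genes compared (n = 9536 with a promoter), genes at least 2-fold higher (n = 192), those of them on none of the 3 lists (n = 137) and genes at least 2-fold lower (n = 475). TATAAA is held by 19.8% of higher promoters against 6.5% of all, and the cores of the hypoxia response element by 69.8% against 64.5%.

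The 8 sequences that follow are the 150 bases before the start of higher genes from different pathways, to show where the letters lie. In the first 6 the TATA box is in capitals, and in the last 2 the cyclic AMP response element. They lie at chr10:96616851-96617000 (plus strand) for Btg1, chr11:69758634-69758783 (minus strand) for Polr2a, chr1:86670574-86670723 (minus strand) for Nppc, chr19:54045109-54045258 (plus strand) for Adra2a, chr14:79771313-79771462 (minus strand) for Pcdh8, chr9:88522898-88523047 (minus strand) for Snhg5, chr11:101665391-101665540 (plus strand) for Arl4d and chr4:141301071-141301220 (plus strand) for Epha2. Each is written 5′ to 3′ on the coding strand.
Btg1: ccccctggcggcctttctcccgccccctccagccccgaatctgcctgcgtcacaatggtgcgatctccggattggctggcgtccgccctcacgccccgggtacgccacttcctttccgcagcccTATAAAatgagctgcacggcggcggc
Polr2a: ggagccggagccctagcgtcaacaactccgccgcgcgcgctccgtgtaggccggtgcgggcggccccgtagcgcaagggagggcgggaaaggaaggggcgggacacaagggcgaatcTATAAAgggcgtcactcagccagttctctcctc
Nppc: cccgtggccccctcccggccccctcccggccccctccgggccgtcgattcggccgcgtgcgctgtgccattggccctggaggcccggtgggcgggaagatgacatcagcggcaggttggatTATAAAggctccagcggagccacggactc
Adra2a: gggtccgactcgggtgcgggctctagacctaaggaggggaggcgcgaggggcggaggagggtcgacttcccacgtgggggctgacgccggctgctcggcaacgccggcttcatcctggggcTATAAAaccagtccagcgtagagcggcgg
Pcdh8: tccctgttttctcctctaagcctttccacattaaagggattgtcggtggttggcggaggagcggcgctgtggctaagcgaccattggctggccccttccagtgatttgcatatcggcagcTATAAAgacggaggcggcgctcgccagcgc
Snhg5: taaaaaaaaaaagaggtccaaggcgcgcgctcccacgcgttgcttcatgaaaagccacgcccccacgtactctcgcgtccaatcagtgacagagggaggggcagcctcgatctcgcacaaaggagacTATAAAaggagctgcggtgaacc
Arl4d: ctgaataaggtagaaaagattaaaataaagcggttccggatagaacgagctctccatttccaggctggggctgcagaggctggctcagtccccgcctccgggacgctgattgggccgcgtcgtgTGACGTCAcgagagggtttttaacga
Epha2: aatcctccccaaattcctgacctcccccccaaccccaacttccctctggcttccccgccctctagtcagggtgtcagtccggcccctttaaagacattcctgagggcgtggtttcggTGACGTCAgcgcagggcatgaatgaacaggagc

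Parts of the transcription machinery went in different directions, and they also differed in span. All 12 RNA polymerase II subunits compared lay above the median of all genes, with a list median of 0.55. Polr2a, the catalytic subunit, was at 155, 313 and 324 CPM and was 2.02-fold higher (95% interval 1.94 to 2.11). Hexim1, which holds the elongation kinase P-TEFb inactive in the 7SK particle, was at 30, 151 and 149 CPM and was 5.03-fold higher (95% interval 4.61 to 5.49). Mepce, which caps the RNA of that particle, was at 29.2, 58.9 and 58.7 CPM. Brd2, a bromodomain reader of acetylated histones, was at 257, 707 and 686 CPM, 2.75-fold higher (95% interval 2.67 to 2.84). Mllt3, Aff1 and Ell2, 3 genes of the super elongation complex, were lower: Mllt3 was at 58.5, 12.8 and 14.4 CPM, Aff1 at 7.97, 1.93 and 2.64 CPM and Ell2 at 6.3, 2.65 and 2.55 CPM. Aff4, a scaffold of that complex, was at 394, 259 and 260 CPM and did not pass 2-fold, with a log2 ratio of -0.60. Of the 37 elongation and pause release genes, 2 were higher (5.41%) and 3 lower (8.11%), around a median of 0.07. Of all genes 1.99% were higher and 4.92% lower. The median span of these 37 was 32.2 kb, against 5.88 kb for the polymerase subunits. Under 30 kb, 2 of 18 elongation genes were higher and 0 lower. Their median was 0.46, with 0.58 for 11 polymerase subunits and 0.24 for all genes of that span. From 30 to 100 kb, 15 elongation genes had a median of -0.2, against -0.12 for all genes. In the Mediator complex, which links activators to the polymerase, 3 of 33 were lower (9.09%), against 4.92% of all genes. All 3 belong to its kinase module. Med13 was at 198, 82 and 83.1 CPM, Med13l at 126, 46.2 and 50.7 CPM and Cdk8 at 40.5, 18.2 and 23.2 CPM. Cdk19 and Ccnc, of the same module, did not pass 2-fold, with signed folds of -1.42 and -1.8 in the authors' deposited table. Of 8 Mediator genes of 30 to 100 kb 2 were lower (25%), against 5.24% of all genes of that span. Under 30 kb 0 of 21 were lower. Med22, of the head module, was higher, at 27.5, 67.4 and 66.7 CPM.

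Among splicing factors, Srsf2 was at 125, 264 and 269 CPM and the SR protein kinase Clk1 at 35.2, 72.1 and 69.7 CPM. They were the 2 of 26 SR proteins and CLK kinases that passed 2-fold, around a median of 0.19. Of the hnRNP proteins, Ptbp1, a repressor of neuronal exons, was at 36.2, 75.7 and 73.4 CPM, and its paralogue Ptbp3 at 21.5, 7.79 and 7.57 CPM. Neuronal RNA binding proteins were on the other side, with 0 higher and 9 lower of 35 and a median of -0.29. Pum2, a Pumilio repressor of translation, was at 244, 112 and 126 CPM. Mbnl1 and Mbnl2, muscleblind splicing regulators, were at 28.6, 8.89 and 8.67 and at 21.6, 8.84 and 8.8 CPM. Elavl2 and Cpeb3 were at 121, 50.6 and 44.2 and at 32.9, 11 and 12.7 CPM. The list is one of long genes, with a median span of 117 kb, and its 19 members of 100 kb or more had a median of -0.43 against -0.36 for all genes of that span. Of these 19, 8 were lower (42.1%), against 17.4% of all genes of that span.

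Genes of mRNA decay went in both directions. Btg1 and Tob1, antiproliferative proteins that recruit the CCR4-NOT deadenylase, were at 44.2, 188 and 171 and at 28.3, 118 and 114 CPM, and were 4.24-fold higher (95% interval 3.95 to 4.56) and 4.18-fold higher (95% interval 3.82 to 4.58). Btg2 and Zfp36, also immediate early genes, were at 13.3, 32.3 and 26.7 and at 0.51, 4.2 and 3.02 CPM, and Pnrc1, a partner of the decapping activators, at 23.2, 67.5 and 56.9 CPM. Cnot6l and Cnot6, catalytic subunits of that deadenylase, were lower: Cnot6l was at 53.2, 13.8 and 13.7 CPM and 3.87-fold lower (95% interval 3.37 to 4.45), and Cnot6 at 107, 45.7 and 47.7 CPM. The catalytic subunits Cnot7 and Cnot8 were at 121, 98.4 and 99.6 and at 49.5, 64.7 and 67.4 CPM and did not pass 2-fold. Of 18 deadenylation genes, 3 were higher (16.7%) and 3 lower (16.7%). Dcp2, the decapping enzyme, was at 66.9, 31.8 and 33.2 CPM. Of 45 genes of mRNA decay, 5 were higher (11.1%) and 4 lower (8.89%), against 1.99% and 4.92% of all genes. Direction went with span. Under 30 kb 4 of 20 were higher (20%), against 3.38% of all genes of that span, and 0 lower. From 30 to 100 kb 1 of 17 was higher and 4 were lower (23.5%), against 5.24% of all genes of that span. The median of these 17 was -0.84, against -0.12. Among the lower 4, Btg3 is uncertain. It was at 3.89, 0 and 0 CPM, while Gm7334, a near-identical sequence, was at 0, 6.46 and 4.81 CPM, and their sum was at 3.89, 6.46 and 4.81 CPM. The reads of such a pair can be assigned to either.

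Dicer1 and Tnrc6b, genes that act in the microRNA pathway, were among the 40 lowest log2 ratios. Dicer1, which cuts microRNA precursors, was at 105, 27 and 27.4 CPM and was 3.88-fold lower (95% interval 3.52 to 4.29). Tnrc6b, a GW182 protein that links Argonaute to deadenylation, was at 134, 29 and 32.8 CPM and was 4.61-fold lower (95% interval 4.2 to 5.07). The other genes of the pathway were looked up after these values were seen. Tnrc6a and Tnrc6c were at 93.8, 44 and 45.8 and at 149, 72.4 and 84.7 CPM, so that all 3 GW182 genes were at least 2-fold lower. These are long genes, of 64.2 kb for Dicer1 and 71.4, 230 and 109 kb for Tnrc6a, Tnrc6b and Tnrc6c. The Argonaute genes Ago1, Ago2, Ago3 and Ago4 did not pass 2-fold, with log2 ratios of -0.28, -0.49, -0.53 and -0.86. Genes of the nuclear steps did not pass 2-fold either. Drosha, which spans 110 kb, was at 165, 202 and 202 CPM, and its partner Dgcr8 and the exporter Xpo5 were at 45.7, 36.7 and 36.7 and at 53.4, 53.2 and 54.6 CPM.

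The translation machinery was higher by small and even steps. All 77 cytosolic ribosomal protein genes compared lay between log2 ratios of 0.54 and 0.95, with a median of 0.69 and sums over the 80 listed of 12737, 20563 and 20245 CPM. None of them passed 2-fold, although the list as a whole was among the most shifted. Genes of less than 30 kb had a median of 0.24, so that the list lay 0.45 above genes of its own span. The 78 mitochondrial ribosomal proteins had a lower median of 0.33 and a wider range, from -0.56 to 0.93. All 12 eIF3 subunits were above the median of all genes. Eif1 and Eif1b, which help to select the start codon, passed 2-fold at 251, 509 and 487 and at 64.3, 141 and 133 CPM. Of the tRNA synthetases, 22 of 23 cytosolic ones lay above the median of all genes and 7 of 17 mitochondrial ones did, with medians of 0.40 and 0.01. Lars2, the mitochondrial leucyl-tRNA synthetase, was the exception, at 370, 795 and 1022 CPM and 2.15-fold higher (95% interval 2.09 to 2.21). Its values followed the same order over the 3 libraries as those of Rn45s, at 2598, 5119 and 8649, and whether the 2 share reads was not tested.

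Small RNA host genes showed larger changes. Of 12 small nucleolar RNA hosts compared, 6 were at least 2-fold higher (50%), 0 lower, and the median was 1.05. Of all genes 1.99% were higher. Under 30 kb 6 of 10 hosts were higher (60%), against 3.38% of all genes of that span. Snhg1 was at 5.05, 22.1 and 21.2 CPM, Snhg12 at 5.05, 20.1 and 19.5 CPM and Snhg5 at 10.6, 35.8 and 34.7 CPM. Gas5, whose spliced RNA is known to be broken down when it is translated, was at 34.6, 84.2 and 78.8 CPM. In ribosome biogenesis, 2 of 48 were higher (4.17%), and under 30 kb 2 of 39 (5.13%), against the same 1.99% and 3.38%. Taf1d, a subunit of the polymerase I initiation factor, was at 13, 33.6 and 34.1 CPM. Polr1c, a subunit of polymerases I and III, was at 17.8, 37 and 36 CPM.

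Protein turnover and folding complexes were shifted in the same direction as ribosomal proteins, by less. All 16 core particle and 19 of 20 regulatory particle genes of the proteasome lay above the median of all genes, with medians of 0.39 and 0.35. These are short genes, and the 37 proteasome genes of less than 30 kb had a median of 0.38 against 0.24 for all genes of that span. Psme4, an alternative activator with a long gene of 109 kb, was at 106, 55.6 and 62.8 CPM. All 8 subunits of the chaperonin CCT lay between log2 ratios of 0.41 and 0.60. The 45 USP deubiquitinases did not follow, with a median of -0.24 and Usp25 lower at 16.9, 6.96 and 5.91 CPM. The vacuolar ATPase, which acidifies lysosomes and synaptic vesicles, had a median of 0.43 over 18 genes, and dynein and dynactin one of 0.43 over 19. Under 30 kb the medians were 0.51 for 7 CCT, 0.47 for 11 vacuolar ATPase and 0.49 for 12 dynein and dynactin genes, against the same 0.24.

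**Figure D4:**
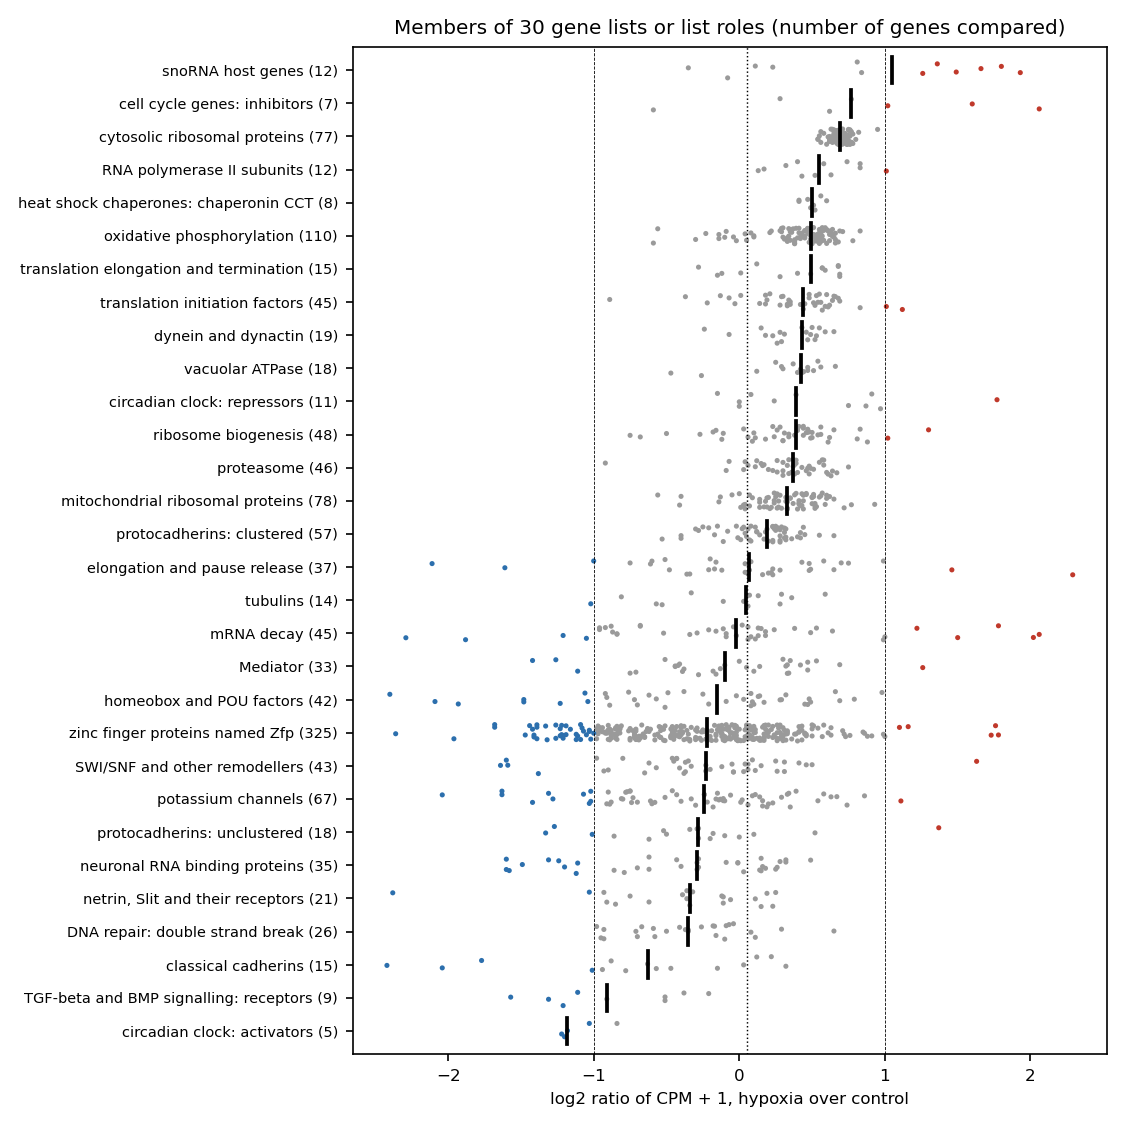
Log2 ratio of CPM + 1, hypoxia over control (horizontal axis), of the members of 30 gene lists or list roles, 1 point per gene, with the number of genes compared after each name. Black bars are medians, the dotted line is the median of all genes (0.05), dashed lines mark 2-fold, and coloured points are genes at least 2-fold apart. Cytosolic ribosomal proteins form a narrow band around 0.69, while the clock activators and the TGF-beta and BMP receptors have medians of -1.18 and -0.91.

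In the respiratory chain the subunits and their assembly factors differed. All 37 complex I subunits were above the median of all genes with a median of 0.52, against 6 of 12 complex I assembly factors with a median of 0.13. For complex IV the medians were 0.61 over 13 subunits and 0.33 over 17 assembly factors. The subunit genes span less, 8.38 kb against 18.8 kb at the median in complex I, but 9 assembly factors of complex I under 30 kb still had a median of -0.04. Lipid synthesis changed little. Of 20 cholesterol synthesis enzymes, 0 passed 2-fold and their median was 0.11. Mylip, a ubiquitin ligase, was at 8.81, 21.8 and 23.7 CPM, and Abca1, the cholesterol exporter, at 40.4, 20.1 and 20.4 CPM. Elovl6, a fatty acid elongase, was at 154, 66.7 and 72 CPM. Among amino acid transporters, Slc3a2, the heavy chain that carries several of them to the membrane, was at 114, 256 and 244 CPM and Slc38a2, a carrier of neutral amino acids, at 167, 349 and 351 CPM. Hmox1, haem oxygenase and a HIF target, was at 5.14, 23.9 and 18.5 CPM, the iron store subunit Fth1 at 414, 704 and 674 CPM, and the iron exporter Slc40a1 at 3.38, 1.16 and 1.7 CPM. Akr1b3, aldose reductase, was at 17.2, 56.1 and 58.6 CPM.

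Receptors of the TGF-beta and BMP family other than the decoy Bambi were lower, and those of the Wnt family were mixed. In the TGF-beta and BMP family 0 of 9 receptors were above the median of all genes. At least 2-fold lower were 4 of them (44.4%), against 4.92% of all genes. Their median span was 90.4 kb. The 6 receptors of 30 to 100 kb had a median of -0.71, against -0.12 for all genes of that span. Of these 6, 2 were lower (33.3%), against 5.24% of all genes of that span. Acvr1 and Bmpr1a, receptors that phosphorylate SMADs, were at 52.3, 22.1 and 20.4 and at 64.6, 29.4 and 29.9 CPM, and Bmpr1b and Acvr1c at 10.1, 3.48 and 2.72 and at 6.72, 1.6 and 1.06 CPM. The SMADs and their targets did not share this, with a median of 0.17 over 21 genes and Id2 at 133, 204 and 191 CPM. Bambi was counted with these 21, as their 1 higher gene, and not with the receptors. In the Wnt pathway, 3 Frizzled receptors were higher: Fzd5 at 0.742, 5.14 and 4.59 CPM, Fzd4 at 5.24, 18.8 and 19.1 CPM and Fzd1 at 18.2, 46.6 and 43.3 CPM. Znrf3, the ligase that removes Frizzled receptors from the membrane, was at 14.9, 3.26 and 3.44 CPM and 4.58-fold lower (95% interval 3.46 to 6.15). The coreceptor Lrp6 was at 51, 20.7 and 22.5 CPM, and the nuclear factors Tcf7l1 and Tcf7l2 at 2.97, 0.608 and 1.7 and at 2.41, 0.497 and 0.468 CPM. Ctnnb1, beta-catenin, was at 493, 641 and 661 CPM, a ratio of 1.3-fold. The higher Frizzled genes span 4.2 to 8.78 kb and Lrp6 120 kb.

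In the Notch pathway the targets parted. Hey1 was at 11.1, 42.2 and 47.1 CPM and was 3.79-fold higher (95% interval 3.28 to 4.4), and Hes5, the repressor that keeps progenitors undifferentiated, was at 10.2, 1.38 and 1.4 CPM and was 7.42-fold lower (95% interval 4.89 to 11.7). Both genes are short, at 3.9 and 1.45 kb. The coactivators Maml2 and Maml3 were at 20.1, 1.99 and 1.28 and at 6.81, 2.32 and 3.15 CPM, the Notch inhibitor Numb at 7.37, 2.43 and 3.7 CPM, and Lfng, the glycosyltransferase that modifies Notch, at 12.7, 5.19 and 5.32 CPM. Hes5 is also a progenitor marker, but it was the 1 lower gene of 12 such markers, of which 7 lay above the median of all genes and whose median was 0.11. Among them the proliferation marker Mki67 was at 69.4, 34.8 and 41.8 CPM. Of the oligodendrocyte precursor genes, Olig2 was at 87.4, 41.4 and 42.8 CPM, Olig1 at 129, 73.9 and 86 CPM and Pdgfra at 63.2, 27.2 and 22.3 CPM. Of 13 oligodendrocyte lineage markers, 2 lay above the median of all genes, and of 31 genes of the G2 and M phases 7 did. Vim and Nes, intermediate filaments of progenitors, were at 138, 209 and 191 and at 70.5, 91.2 and 97.6 CPM. The part of precursor cells in the other values was not tested. Of 7 cell cycle inhibitors 3 were higher, Btg1, Cdkn1a and Cdkn1b, with Cdkn1a at 27.8, 86.1 and 91.9 CPM and Cdkn1b at 79.7, 162 and 151 CPM, and E2f3, an activator of S phase genes, was at 36.7, 8.95 and 8.93 CPM.

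The circadian clock list divided along its feedback loop. Of the 5 activators, 4 were at least 2-fold lower (80%), against 4.92% of all genes. The other, Rora, also a HIF target, was at 9.36, 4.81 and 5.02 CPM. Clock was at 34, 16.1 and 16.8 CPM, its partner Arntl at 23.1, 9.67 and 14.5 CPM, Npas2 at 7.42, 2.65 and 3.06 CPM and Rorb at 58.8, 24.7 and 17.3 CPM. Of the 11 repressors, 8 were above the median of all genes. Only 1 of the 11 was at least 2-fold higher (9.09%), against 1.99% of all genes. Ciart, which represses the Clock and Arntl dimer, was at 1.81, 8.56 and 11.6 CPM and 4.74-fold higher (95% interval 3.32 to 6.91), and Nr1d1, which represses Arntl, at 87.4, 160 and 159 CPM. Per1 and Nfil3, also on the lists set aside, were at 84.9, 160 and 137 and at 59.5, 118 and 100 CPM. Per2 and Cry1, of the same loop, were at 15.3, 15.2 and 17.9 and at 23, 24.3 and 23 CPM, and the 95% interval of either ratio held 1. The activators are long genes, with a median span of 170 kb against 14.7 kb for the repressors. Of all genes of 100 kb or more, 17.4% were lower.

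Chromatin regulators that were lower included some of the most changed genes. Lower were 4.55% of 44 histone methyltransferases, 6.45% of 31 Polycomb genes and 7.89% of 38 acetyltransferases and deacetylases, against 4.92% of all genes. The share was 9.3% of 43 SWI/SNF and other remodellers and 16.7% of 24 histone demethylases. At 100 kb or more it was 22.2% of 9 methyltransferases, 25% of 12 remodellers, 30% of 10 acetyltransferases and deacetylases and 57.1% of 7 demethylases. Of all genes of that span 17.4% were lower. Jarid2, a Polycomb cofactor, was at 56.8, 12.9 and 12.8 CPM and 4.42-fold lower (95% interval 3.83 to 5.1), and Asxl3 at 94.2, 30.5 and 29.8 CPM. Cbx8, a short Polycomb gene of the chromobox family, went the other way, at 7.65, 17.8 and 15.3 CPM. Arid5a was at 7.97, 26.8 and 19.1 CPM and its paralogue Arid5b at 26.7, 7.9 and 5.32 CPM. Kmt2c and Prdm16, histone methyltransferases, were at 138, 60.6 and 67.8 and at 11.1, 3.04 and 2.76 CPM, and the deacetylase Hdac4 at 31.3, 10.4 and 9.7 CPM. Sap30, a subunit of the SIN3 deacetylase complex, was at 5.7, 24 and 23 CPM, and H3f3b, which encodes the replication-independent histone H3 variant, at 292, 592 and 547 CPM.

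Of 32 factors of cortical layers, 0 were higher and 7 (21.9%) lower, against 4.92% of all genes. Their 16 genes of at least 100 kb included 6 lower ones (37.5%), against 17.4% of all genes of that span. Sox5 and Zeb2, which act in the laying down of cortical layers and in interneuron migration, were at 114, 23.7 and 24.1 and at 192, 49.8 and 41.3 CPM. Other identity genes were not lower: Tbr1 was at 133, 177 and 162 CPM, Fezf2 at 76.9, 124 and 110 CPM and Lhx2 at 128, 130 and 134 CPM. Creb1, which binds the cyclic AMP response element, was at 60.7, 19.3 and 24.6 CPM and 3.15-fold lower (95% interval 2.79 to 3.55), and Creb5 at 4.12, 0.331 and 0.765 CPM. Of the nuclear receptors, the mineralocorticoid receptor Nr3c2 and the glucocorticoid receptor Nr3c1 were at 8.67, 1.55 and 2.13 and at 16.9, 6.63 and 8.25 CPM. The thyroid hormone receptor Thrb was at 20.8, 5.19 and 5.1 CPM and its paralogue Thra at 642, 882 and 878 CPM. Of 21 Krueppel-like and Sp factors, 4 were higher and 4 lower. Sp1, Klf7, Klf8 and Klf13 were the lower ones, with log2 ratios of -1.30, -1.36, -1.14 and -1.70. Klf4, Klf10 and Klf2, all on the lists set aside, were higher, with 3.83, 1.52 and 1.37, and the fourth higher gene was Klf14, at 0.463, 1.93 and 1.28 CPM.

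Genes named Zfp, mostly zinc finger repressors, were the list with the most genes. Of 325 compared, 5 were higher and 37 (11.4%) lower, with a median of -0.22. Long span does not describe this family, whose median was 16.5 kb. Its 260 genes of less than 30 kb had a median of -0.11 and 8.08% lower, against 0.24 and 1.11% for all genes of that span. Zfp462 was at 119, 22.4 and 25.1 CPM and Zfp608 at 40.2, 11.9 and 10.5 CPM, and of the shorter genes Zfp799, of 14.8 kb, was at 26.9, 9.28 and 9.4 CPM and Zfp786, of 11.6 kb, at 8.81, 2.54 and 4.59 CPM. The 5 higher genes were Zfp36, Zfp703, Zfp503, Zfp61 and Zfp954. Zfp703 and Zfp503, related corepressors, were at 26.1, 90.7 and 91 and at 2.64, 11 and 11 CPM.

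Guidance and adhesion genes were lower in part. Nrp1, a semaphorin receptor, was at 81.8, 21.5 and 17.3 CPM and Plxna2, a plexin that signals together with neuropilins, at 357, 146 and 180 CPM. They were the 2 lower genes of 28 in the semaphorin and plexin list (7.14%), against 4.92% of all genes. Among its 14 genes of at least 100 kb 14.3% were lower, under the 17.4% of all genes of that span. In the Eph family, Epha3 and Epha7 were at 21.5, 4.47 and 5.36 and at 66.8, 29.5 and 27.3 CPM, whereas Epha2 and Ephb3 were higher, at 0.232, 3.48 and 2.13 and at 12.1, 27.3 and 33.5 CPM. Epha4 was at 93.5, 46.7 and 87.1 CPM, a gene for which the hypoxic libraries differed from each other. Of 15 classical cadherins, 4 (26.7%) were lower, against 4.92% of all genes. Nearly all are long, and among 14 with a span of at least 100 kb 28.6% were lower, against 17.4% of all genes of that span. Among the lower ones were Cdh10 and Cdh20 at 56.1, 12.9 and 8.76 and at 14.7, 3.59 and 3.36 CPM. Of 57 clustered protocadherins, 0 passed 2-fold and their median was 0.19, although the annotated span of these genes is 88.2 kb at the median. The 18 unclustered protocadherins and relatives had a median of -0.29, with Pcdh8, an activity-induced member, higher at 127, 331 and 287 CPM and Pcdh20 lower at 29.7, 11.7 and 7.74 CPM.

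Potassium channels had 10 lower (14.9%) and 1 higher (1.49%) of 67, against 4.92% and 1.99% of all genes. Of the 24 with a span of at least 100 kb, 6 were lower (25%), against 17.4% of all genes of that span. Kcnk10, a tandem-pore leak channel, was at 25.5, 5.47 and 5.19 CPM. The short genes Kcnv1 and Kcns2, silent subunits that act within voltage-gated channels, were lower too, at 30.4, 11.7 and 9.99 and at 10.4, 4.58 and 6.55 CPM. Kcnj2, an inward rectifier, was the higher gene, at 17.6, 39 and 27.9 CPM. The cyclic AMP phosphodiesterase Pde10a was at 144, 53.8 and 53.8 CPM, 1 of 2 lower genes among 16 phosphodiesterases. Their 9 genes of 100 kb or more had a median of -0.25 against -0.36 for all genes of that span.

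Some abundant tubulin genes were lower although tubulin genes are short. The sum over the 19 tubulins listed was 17957, 15171 and 14273 CPM, while the median of the 14 compared was 0.05. Tubb3 and Tubb5 span 10.6 and 4.39 kb and were 2.03-fold lower (95% interval 1.99 to 2.07) and 1.75-fold lower (95% interval 1.72 to 1.78). Tubb4a was at 341, 237 and 212 CPM, whereas Tubb2b was at 3366, 3540 and 3355 CPM and Tuba4a at 30.9, 39.9 and 44.1 CPM. Tuba1a, Tuba1b and Tuba1c, whose sequences are nearly identical in part, summed to 8979, 8131 and 7791 CPM. Actin genes and actin regulators differed from this, with a median of 0.26 over 43 genes and Cfl1, cofilin, at 1001, 1592 and 1548 CPM. Nefl, the light neurofilament, was at 75.4, 171 and 185 CPM, 2.27-fold higher (95% interval 2.14 to 2.41).

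Span ran through these results, and the members that went against it are listed here. Of genes under 5 kb, 96 of 1356 were higher and 13 lower, and of the 2022 genes of 100 kb or more, 0 were higher and 352 (17.4%) lower. Among these the share lower was 32.4% of 37 genes with 1 to 3 exons and 16.8% of 1563 genes with 10 or more. Lower genes under 10 kb numbered 25, of 2955. Klhl34, a single-exon gene of 1.94 kb, was at 17.8, 3.53 and 3.83 CPM and 5.05-fold lower (95% interval 3.87 to 6.68). Slitrk5, a synaptic adhesion protein, was at 81, 34.1 and 27.8 CPM. Jrk and Thrsp were at 10.5, 2.6 and 3.27 and at 3.8, 0.773 and 1.19 CPM. Higher genes of 30 kb or more numbered 16, of 5684, and 9 of them were on the 3 lists. Some owe their place to the annotation: Pnrc1 spans 44.7 kb in GENCODE and 3.37 kb in RefSeq, and Dusp1 56.5 and 2.88 kb. Dnajb4, a heat shock cochaperone, spans more than 28 kb in both and was at 27.6, 65.1 and 61.1 CPM, and Sh2d3c, an adaptor, spans 34.5 and 34 kb and was at 25.2, 54.3 and 51.6 CPM. Reln, a secreted guide of cortical layering encoded by a gene of 460 kb, was at 278, 418 and 411 CPM, 1.5-fold higher (95% interval 1.45 to 1.56).

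**Figure D5:**
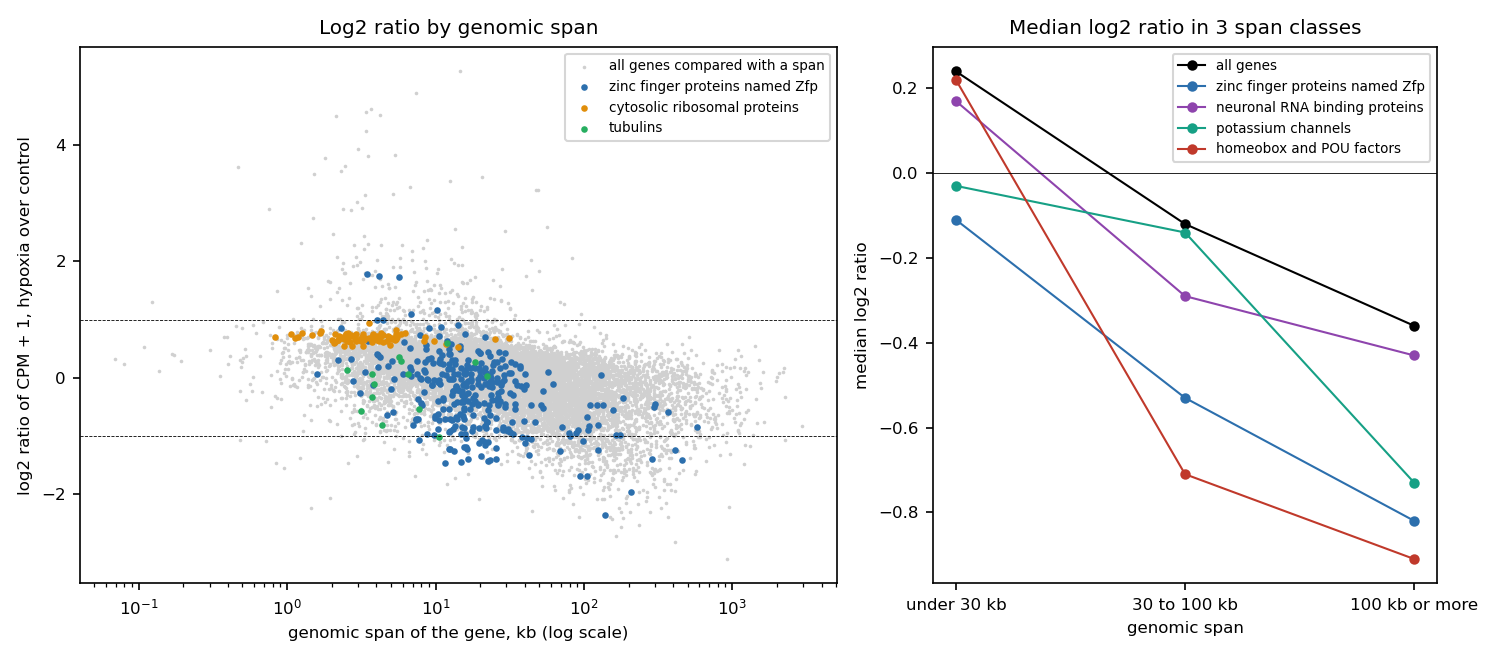
Left, log2 ratio of CPM + 1 (vertical axis) against the genomic span of each gene in kb (horizontal axis, log scale), with Zfp genes, cytosolic ribosomal proteins and tubulins coloured. Right, median log2 ratio in 3 span classes for all genes and 4 lists: Zfp genes of less than 30 kb have a median of -0.11 against 0.24 for all genes of that span.

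The authors' deposited table of this comparison lists a false discovery rate below 0.05 for 75 of the genes compared here, of which 48 are on none of the 3 lists, 19 higher and 29 lower. Ccno, an atypical cyclin, had a false discovery rate of 1.72e-05 in the authors' deposited table. Ccno had 12, 211 and 227 reads and was 21-fold higher (95% interval 11.7 to 41.2), a larger ratio of CPM than that of Arl4d, from fewer reads. In the authors' deposited table, Tnfrsf12a had 0.000845, while Hexim1 and Btg1, with many more reads and smaller folds, had 0.0588 and 0.13. How variability was set for single libraries is not given in the sources used here. Several of the highest folds belong to genes with near-identical copies and are uncertain. Atp6v0c-ps2, a copy of a vacuolar ATPase subunit gene, was 0, 11.3 and 6.12 CPM, while the sum with Atp6v0c was 476, 766 and 757 CPM. Hspa1a and Hspa1b, inducible HSP70 genes, summed to 18.3, 67 and 60.3 CPM, a ratio of 3.67 that does not depend on how reads were shared between them.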

How the data were processed

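RNA-seq of 3 libraries was used, 1 for each group. The deposited CPM table, normalised by TMM per its file name, was the source of every level. The values of a library were whole multiples of what 1 read is worth (100% within 0.01 reads), so reads were recovered. The authors' deposited table of hypoxia against control gives a signed fold, p-values and a false discovery rate, and a signal per library that was not used. The test behind it is not given in the sources used here. The submitters' processing notes name bcl2fastq 2.17, Bowtie2 2.1.0, RSEM 1.2.15 and build mm10, without roles. Expression was compared as the log2 ratio of CPM + 1 over the genes whose 3 libraries averaged 1 CPM or more. A count test on the recovered reads was not run, since 1 library a group leaves no residual degrees of freedom. Folds of single genes are CPM ratios with nothing added. Their intervals held the true value for 95.4% of 12692 genes in data simulated with counting error only, the error they are built for. The simulation held no variation between cultures. Depth limits low genes: 3 reads are 0.139, 0.166 and 0.128 CPM.

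The genes and the 115 lists were chosen with earlier results of these data known. The text names, of genes on none of the 3 lists set aside (immediate early genes, HIF targets, glycolysis), the 40 highest and 40 lowest log2 ratios at a mean of at least 5 CPM. It also draws on the 6 largest and 3 most abundant members of each list, the 20 largest gains and losses in CPM, and the cell type markers. Named outside this rule, after their values were seen, were Ago1, Ago2, Ago3, Ago4, Btg2, Cnot6, Cry1, Dcp2, Dgcr8, Drosha, Gm7334, Htr5a, Jrk, Kcnj2, Kcns2, Klf8, Mbnl2, Nfil3, Per1, Per2, Pum2, Rora, Sh2d3c, Spry1, Tcf7l2, Thrsp, Tnrc6a, Tnrc6c, Xpo5, Zfp61, Zfp608, Zfp786, Zfp799 and Zfp954. Spans come from GENCODE M21 (GRCm38), in which 12605 genes matched by symbol or synonym. A gene counts as having a copy when at least 50% of its 31-base words occur in another gene (181 genes). Alternatives were 3 scalings (edgeR 4.0.16 and DESeq2 1.42.0 factors among them), other values added, other filters and other folds. Python 3.11.15, pandas 2.3.3, numpy 2.4.6, scipy 1.17.1, matplotlib 3.10.9 and R 4.3.3 were used. The table of hypoxia with T3 against control was not used here.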

Additional observations from a re-analysis of the deposited data

How the results depend on the processing

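The deposited scaling gave 252 genes at least 2-fold higher and 624 lower, with a median log2 ratio of all genes of 0.05. Each library scaled to the same sum gave 188 higher and 949 lower and a median of -0.1. Recomputed TMM factors (edgeR) gave 221 and 779 and a median of -0.02, and DESeq2 size factors 229 and 728 and a median of 0.0. With 3 CPM added in place of 1 CPM there were 191 higher and 404 lower. A mean of at least 5 CPM moved the median of all genes to 0.08, and no filter beyond 1 read moved it to 0.03. At least 1.5-fold apart were 1074 higher and 1754 lower genes, and at least 3-fold apart 95 and 123. The median of 59 of the 112 lists with 5 or more genes lay above that of all genes, and of 57 to 65 under the alternatives. Under these alternatives, no list at least 0.1 away from the median of all genes changed side. None of the 313 genes at least 2-fold apart, of 939 open to naming, changed direction. Little else was possible: a scaling moves all log2 ratios by nearly the same amount, and neither an added value nor a filter can turn a gene's direction. Of the 313, 23 were no longer 2-fold apart with equal sums, 15 with TMM factors, 13 with DESeq2 factors and 52 with 3 CPM added. Of the 112 lists, 24 moved by 0.1 or more relative to all genes under 1 setting or more. Of the 939 genes, 672 left their 95% interval or crossed 2-fold under 1 setting or more. No paired analysis was possible because each group had 1 library and the labels gave no replicate numbers. With 1 library a group no replicate could be left out.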
